A study of Mus musculus with 9 samples.

Results

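The mitochondrial ribosomal protein genes were taken as every gene whose symbol begins with Mrpl or Mrps followed by a digit, read on a probe that names 1 gene only. These were 71 of the 22180 genes measured, 43 with an Mrpl symbol, assigned to the large subunit, and 28 with an Mrps symbol, assigned to the small subunit. A further 7 genes of this naming (Mrpl30, Mrpl33, Mrpl41, Mrpl43, Mrpl44, Mrpl53 and Mrps6) lie only on probes shared with another gene and are given no value. Their transcripts were measured on 9 single-channel arrays, 1 per sample, of CD11c-positive, MHC class II-positive dendritic cells (DCs) sorted from spleens of naive mice on the C57BL/6 background. The 6 controls were C/EBPβ+/+, from C57BL/6 or CD11c.Cre mice, and the labels do not say which control came from which. The 3 knockouts were C/EBPβ-/-, from CD11c.Cre x C/EBPβflox/flox mice, in which Cre, the recombinase that removes the loxP-flanked gene, is driven by the CD11c promoter and so acts in CD11c-expressing cells. C/EBPβ belongs to the bZIP transcription factors and acts in myeloid cells. The comparison asks what its loss does to DCs in the resting animal. The labels give neither age nor sex, and do not state whether replicates are different mice. The p-values thus reflect only sample-to-sample spread, part of which could be technical.

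Mitochondria keep their own ribosome, which makes the few respiratory chain and ATP synthase subunits encoded in mitochondrial DNA. All of its proteins are encoded in the nucleus, made in the cytosol and imported. Some have a counterpart in the bacterial ribosome and others exist only in mitochondria, where they replace or surround ribosomal RNA that was lost in evolution. DCs that are activated shift towards glycolysis, while resting DCs respire, so this machinery is of interest in the steady state.

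The deletion and the cell type were checked first. Cebpb had a log2 intensity of 6.64 to 7.15 in the controls (median 6.77) and of 5.37, 5.6 and 5.42 in the knockouts, a change of -1.35 (SE 0.11, limma adjusted p = 0.00074). All 10 measured DC markers were bright in both groups: their mean log2 intensity was 11.26 to 11.38 in the controls and 11.26 to 11.36 in the knockouts, and no DC marker passed 0.05. Single markers differed from -0.21 to 0.25. Kmo, at -0.21, read 11.05, 11.08 and 11 in the knockouts, below all controls (11.18 to 11.42), Irf4 was at 0.25, and Itgax (CD11c) was at -0.0045. Array medians lay between 5.49 and 5.56. Knockout replicate 3 stood apart by its B cell markers: the median of 12 such genes was 0.69 above the control mean there, against 0.093 and -0.078 in knockout replicates 1 and 2 and -0.065 to 0.16 in the controls. Knockout replicate 3 was also the highest sample for plasmacytoid DC markers (0.47, against 0.046 and 0.032 in knockout replicates 1 and 2 and at most 0.21 in the controls). The same held for plasma cell markers (0.55, against 0.28 and 0.12, and at most 0.12 in the controls). The main counts are therefore also given without that sample.

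Transcripts of mitochondrial ribosomal proteins were slightly lower in DCs without C/EBPβ, in both subunits, with no single gene past the test. Of the 71 genes, 63 had a lower mean in the knockouts (38 of 43 in the large and 25 of 28 in the small subunit). The median log2 difference, knockout minus control, was -0.15 in the large subunit, which is 1.11-fold, and -0.12 in the small, which is 1.08-fold. Over all genes tested the median was -0.014 and 55% of differences were below 0, and over the 11090 genes with the brighter probes, which held 68 of the 71 members, these were -0.045 and 64%. None of the 71 genes passed an adjusted p of 0.05 by limma, where 0.906% of all genes did (0.491% lower and 0.415% higher in the knockouts), and the smallest adjusted p among them was 0.12 (Mrps28). At an unadjusted p under 0.05 by limma 22 of the 71 genes (31.0%) were lower and 0 higher, against 8.82% lower over all genes (14.3% in either direction) and 15.3% lower over the brighter genes. In 15 genes (21.1%) all 3 knockouts lay below all 6 controls, against 4.88% of all genes and 8.80% of the brighter genes. In 0 members did all 3 knockouts lie above the controls, against 2.52% of all genes. Gaps between the groups in these 15 genes were narrow, from 0.00016 to 0.063 on the log2 scale.

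The size of the difference was bounded closely even though no gene was called. The standard error of a member's difference was 0.083 at the median, and in 68 of the 71 genes the 95% confidence interval lay within a 1.5-fold change in either direction. Members are not replicates, since all were read from the same 9 RNA samples, so the shared direction describes these samples and carries no p-value of its own. In sorted cells measured in bulk, fewer cells of a type with high levels and less RNA per cell cannot be told apart.

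Sample by sample, the 3 knockouts had the 3 lowest subunit medians. For each gene its control mean was subtracted, and the median over the genes of a subunit was then taken in each sample. For the large subunit, knockout replicates 1 to 3 had values of -0.10, -0.13 and -0.21, while control replicates 1 to 6 had -0.043, -0.046, 0.044, 0.092, -0.044 and 0.017. For the small subunit, the knockouts had -0.055, -0.092 and -0.18, while the controls had -0.018, -0.037, 0.051, 0.094, -0.034 and -0.021. The groups did not overlap in either subunit, but in the small subunit knockout replicate 1 (-0.055) lay close to control replicate 2 (-0.037). The subunits moved together: control replicate 4 was the highest and knockout replicate 3 the lowest in both. Of the 71 genes, 35 had their lowest value in knockout replicate 3, 10 in knockout replicate 2 and 5 in knockout replicate 1, while 28 had their highest value in control replicate 4 and 22 in control replicate 3. Without knockout replicate 3, 59 of 71 genes were still lower, with medians of -0.11 (large) and -0.092 (small), and 12 (16.9%) were lower at an unadjusted p under 0.05 by limma. Over all genes in that fit 55.3% were lower and 6.68% were lower at that p. The 2 remaining knockouts then lay below all controls in 16 members (22.5%), against 8.24% of all genes. The matching shares over the brighter genes, 15.3% and 8.80% with all samples, were not taken without knockout replicate 3.

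**Figure D1:**
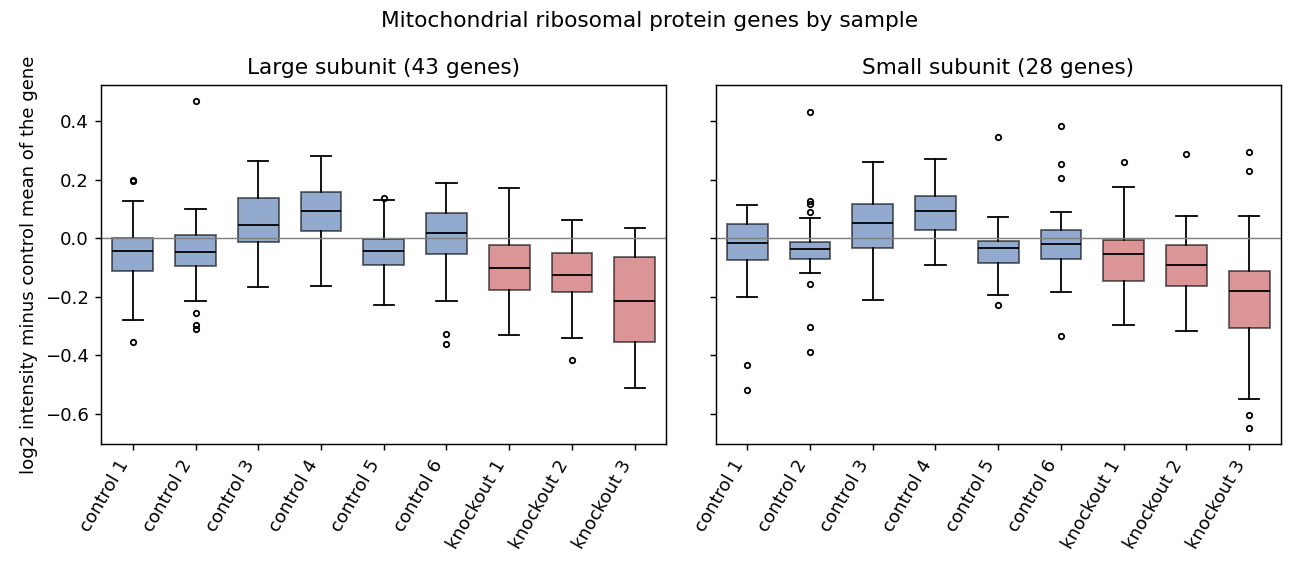
Each box shows, for 1 sample, the log2 intensity minus the control mean of the gene over the 43 large subunit genes (left) or 28 small subunit genes (right). The line is the median, the box the quartiles, the whiskers reach to 1.5 times the box height and circles are genes beyond them. Knockout medians lie below every control median in both panels, and knockout replicate 3 is lowest at -0.21 and -0.18.

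In the large subunit, the genes with the most negative test statistics encode proteins of several regions of the particle. Mrpl16, whose bacterial counterpart sits near the peptidyl transferase centre, had a log2 intensity of 7.94 to 8.32 in the controls (median 8.07) and of 7.91, 7.75 and 7.58 in the knockouts. Its difference was -0.34 (SE 0.10, limma adjusted p = 0.13). All 3 knockouts were below every control, by a margin of 0.029. Mrpl49, a mitochondria-specific protein, ranged from 8.13 to 8.68 in the controls (median 8.39) and was 8.15, 7.99 and 7.93 in the knockouts, where replicate 1 lay inside the control range. Its difference was the largest of the subunit at -0.38 (SE 0.11, limma adjusted p = 0.16). Mrpl52, also mitochondria-specific and the brightest probe of the set, read 10.23 to 10.50 in the controls (median 10.35) and 10.03, 10.16 and 10.15 in the knockouts. These groups did not overlap, and the difference was -0.25 (SE 0.07, limma adjusted p = 0.16).

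Mrpl55, which corresponds to a bacterial protein that bridges the subunits, read 8.02 to 8.20 in the controls (median 8.13) and 7.92, 7.96 and 7.82 in the knockouts, with a difference of -0.21 (SE 0.06, limma adjusted p = 0.15). Mrpl58, a release factor-like peptidyl-tRNA hydrolase built into the large subunit, read 8.93 to 9.21 in the controls (median 9.03) and 8.79, 8.87 and 8.87 in the knockouts. Neither gene overlapped between the groups, and their margins of 0.061 each were among the widest. In Mrpl58 it was knockout replicate 1, not replicate 3, that was lowest. Mrpl18, of the central protuberance, differed by -0.27 with knockout values of 8.23, 8.42 and 8.18 against 8.43 to 8.71 in the controls, and Mrpl36, a small zinc-binding protein that joins late in assembly, by -0.27 with 6.45, 6.38 and 6.19 against 6.51 to 6.85. The other large subunit genes without overlap were Mrpl3 (-0.24), Mrpl28 (-0.22), Mrpl51 (-0.18), Mrpl40 (-0.17) and Mrpl48 (-0.10). For Mrpl3, a protein near the catalytic centre, control replicate 4 and knockout replicate 1 both read 7.98, so its separation rests on the fourth decimal.

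Groups of large subunit proteins that work side by side gave similar small values; these groups were put together after the values were seen. The 3 proteins of the lateral stalk, which recruits elongation factors, were alike: Mrpl10 differed by -0.15, Mrpl11 by -0.15 and Mrpl12 by -0.17, and none was without overlap. The 5 genes grouped here under the central protuberance (Mrpl18, Mrpl38, Mrpl40, Mrpl46 and Mrpl48) were lower, with a median of -0.11. This group, like the others here, need not hold every protein of its region. Around the exit of the nascent chain tunnel 4 of 6 genes were lower, with Mrpl23 at -0.23 and Mrpl47 at -0.19. The 2 that were not lower were Mrpl24 (0.0050) and Mrpl45 (0.027), the latter a protein that ties the ribosome to the inner membrane. Mrpl45 ranged from 7.97 to 8.05 in the controls and read 8.13, 7.96 and 8.03 in the knockouts. Only 3 further large subunit genes had a mean above that of the controls, Mrpl27 (0.023), Mrpl32 (0.031) and Mrpl37 (0.021), all with 95% intervals that included 0.

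**Figure D2:**
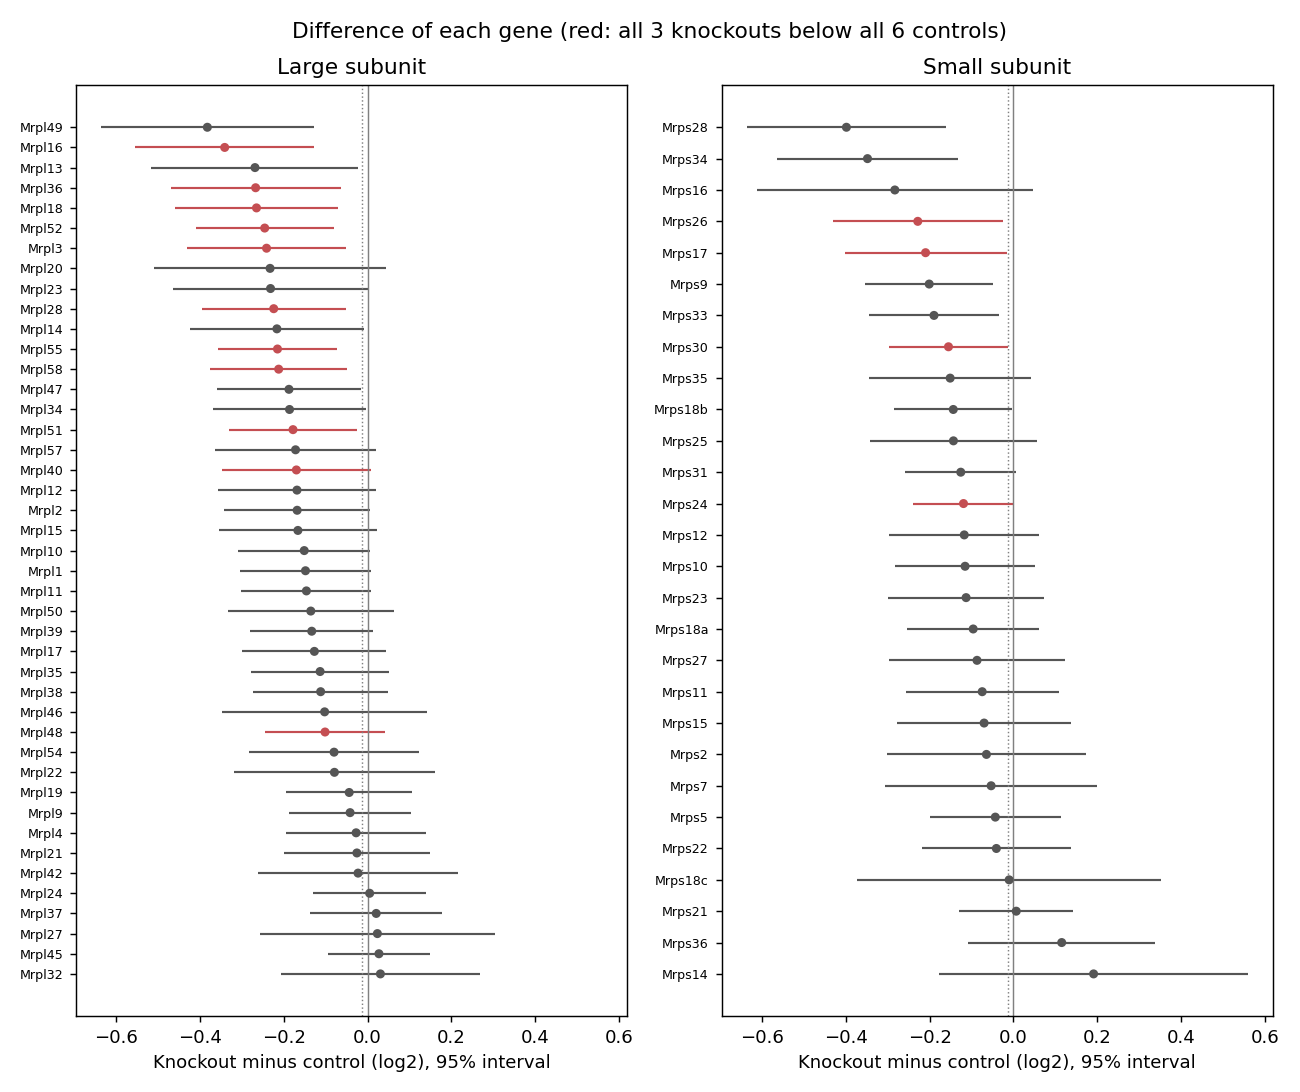
Points give the knockout minus control log2 difference of each of the 71 genes and lines its 95% confidence interval from limma, for the large subunit (left) and the small subunit (right). Red marks the 15 genes whose 3 knockout values lie below all 6 controls, the dotted line is the median over all genes tested at -0.014, and most points lie left of 0 with intervals that reach no further than -0.64.

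In the small subunit, Mrps28 and Mrps34 had the largest differences, that of Mrps28 being the largest of all 71 genes. Mrps28 read 7.36 to 7.83 in the controls (median 7.72) and 7.37, 7.37 and 7.06 in the knockouts, a difference of -0.40 (SE 0.11, 95% interval -0.64 to -0.16, limma adjusted p = 0.12) or 1.32-fold. The overlap came from control replicate 2, which at 7.36 lay as low as knockout replicates 1 and 2. Mrps34, a mitochondria-specific protein needed for a stable small subunit, read 7.96 to 8.33 in the controls (median 8.18) and 7.97, 7.84 and 7.60 in the knockouts, a difference of -0.35 (SE 0.10, limma adjusted p = 0.13). There the lowest control, replicate 5, was level with knockout replicate 1.

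The genes without overlap in this subunit were Mrps26 (-0.23), Mrps17 (-0.21), Mrps30 (-0.15) and Mrps24 (-0.12). Mrps26, mitochondria-specific, read 7.94 in 4 of the controls, 8.20 and 8.24 in the other two, and 7.87, 7.88 and 7.67 in the knockouts. Equal values in several arrays were common in this set: 33 of the 71 genes had the same value in at least 2 arrays, and Mrps2 had it in 5. Mrps24, the counterpart of a bacterial protein at the entry of the messenger RNA channel, had the smallest standard error (0.054) and read 8.43 to 8.56 in the controls against 8.42, 8.39 and 8.32. Mrps9 differed by -0.20 and Mrps33 by -0.19, each with 1 knockout level with or inside the control range. The higher means in this subunit were those of Mrps14 (0.19, SE 0.17), Mrps36 (0.12, SE 0.10) and Mrps21 (0.0070), none past 0.05. Mrps14 and Mrps36 had the dimmest probes of the set, with control values of 4.70 to 5.65 and 4.57 to 5.06, below the array medians for the most part. How much of such a signal is background was not measured.

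**Figure D3:**
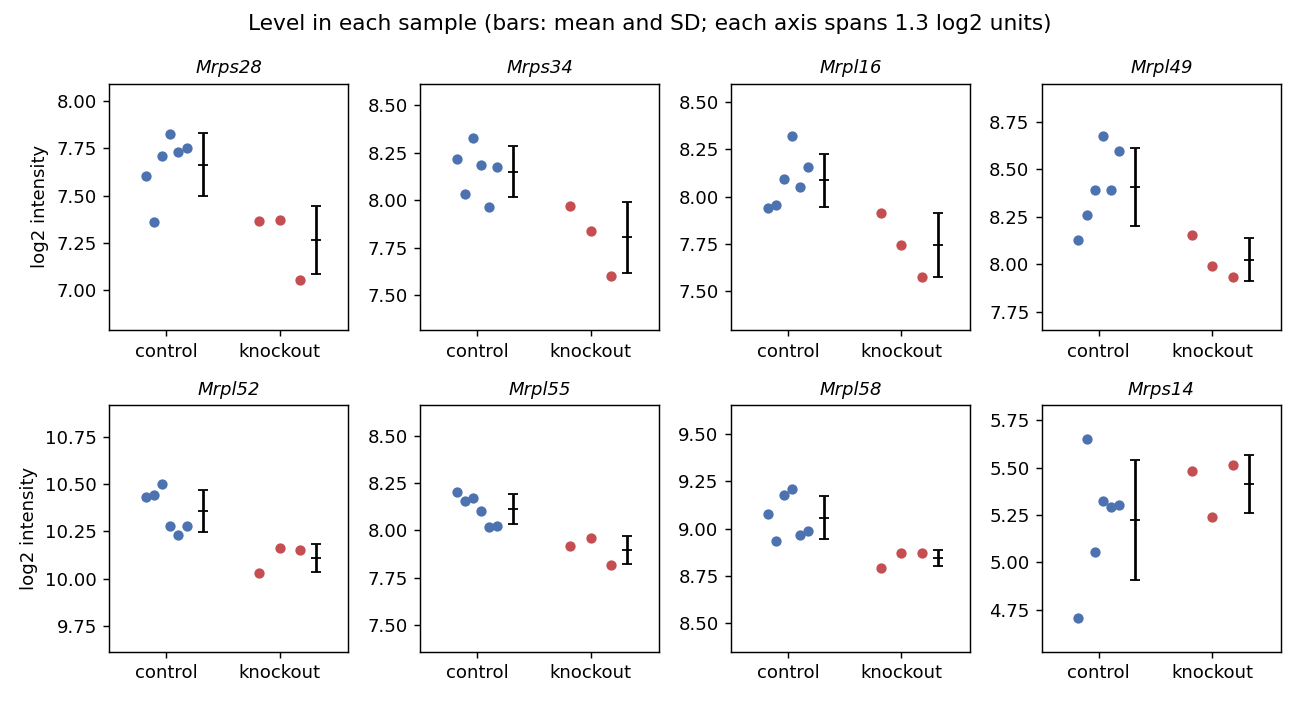
Dots give the log2 intensity in each of 6 control (blue) and 3 knockout (red) samples for 8 genes, left to right in order of replicate number, and bars give the mean and SD. Each vertical axis spans the same range of 1.3 log2 units and does not start at 0. Mrpl16, Mrpl52, Mrpl55 and Mrpl58 do not overlap between the groups, Mrps28, Mrps34 and Mrpl49 overlap at 1 control, and Mrps14 scatters widely in the controls.

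Some symbols do not match the protein's place. Mrps18a and Mrps30 are part of the large subunit, and Mrps36 is now known as a subunit of the 2-oxoglutarate dehydrogenase complex. With these placed by structure, 40 of 45 large and 23 of 25 small subunit genes were lower, with medians of -0.15 and -0.12. Mrps18a, Mrps18b and Mrps18c are paralogs that occupy different sites of the ribosome, Mrps18c that of the bacterial protein. Their differences were -0.096 (SE 0.071), -0.14 (SE 0.064) and -0.0099 (SE 0.16). Mrps18c was the most scattered of these, from 6.17 to 6.95 in the controls, with 6.62, 6.89 and 6.26 in the knockouts, so a difference between the paralogs was not resolved.

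Proteins with a bacterial counterpart and those found only in mitochondria, a split made after the values were seen, were both lower. In the large subunit 25 of 28 genes with a counterpart were lower (median -0.17), and 13 of 15 mitochondria-specific genes (median -0.13). In the small subunit these were 13 of 15 (median -0.074) and 10 of 10 (median -0.15). These counts follow the symbols. With Mrps30 moved to the large subunit, 14 of 16 large and 9 of 9 small mitochondria-specific genes were lower, with medians of -0.13 and -0.14.

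For 9 of the genes a second, dimmer probe was present. It was lower in the knockouts in 6 of the 9, with -0.30 for Mrps16 (brightest probe -0.28), -0.22 for Mrpl36 (-0.27), -0.18 for Mrpl47 (-0.19), -0.14 for Mrps18b (-0.14), -0.13 for Mrpl10 (-0.15) and -0.070 for Mrps17 (-0.21). The second probes of Mrpl12 (0.021), Mrps5 (0.024) and Mrps18c (0.019) were close to 0.

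The rest of the machinery for mitochondrial gene expression lay on the same side. The list of mitochondrial translation factors spans initiation, elongation, release and other steps. Its genes were lower in 16 of 16 (median -0.14), among them the elongation factor Gfm1 (-0.21) and the peptidase Metap1d (-0.21). The mitochondrial tRNA synthetases and amidotransferase genes were lower in 15 of 19 (median -0.13), with Qrsl1 at -0.30 (limma adjusted p = 0.070) and Rars2 at -0.35 (limma adjusted p = 0.099). Assembly and rRNA modification factors were lower in 23 of 28 (median -0.10), with the pseudouridine synthase Trub2 at -0.30 (limma adjusted p = 0.076) and the GTPase Gtpbp10 at -0.38 (limma adjusted p = 0.077). Genes of mitochondrial DNA transcription and upkeep were lower in 15 of 18 (median -0.075), with Pnpt1 at -0.19 and Ssbp1 at -0.25. Of 5 ribosomal proteins with unrelated symbols 3 were measured, at -0.19 (Ptcd3), -0.062 (Gadd45gip1) and -0.021. No gene of these 5 lists passed 0.05, although Gtpbp10, Trub2, Qrsl1 and Rars2 did under some alternatives. Without knockout replicate 3 the list medians, in the order given, were -0.11, -0.093, -0.055, -0.037 and -0.027. The 13 protein genes of mitochondrial DNA itself were not analysed here.

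The nuclear-encoded respiratory chain and ATP synthase genes, whose mitochondrial partners this ribosome makes, were lower in 77 of 90 (median -0.12), led by Ndufa4 (-0.33, limma adjusted p = 0.068) and Ndufs7 (-0.23), with none past 0.05 (median -0.083 without knockout replicate 3). Cytosolic ribosomal proteins were lower in 41 of 57, but their median was only -0.044 (-0.014 without knockout replicate 3), led by Rpl3 (-0.34) and Rps25 (-0.22), and knockout replicate 2 (0.015) lay inside the control range of -0.051 to 0.060. Known regulators of mitochondrial biogenesis had a median of -0.050, or -0.014 without knockout replicate 3, with 8 of 13 lower. The nuclear receptor Esrra differed by -0.16 and Myc, a driver of ribosome synthesis, by 0.35 in the opposite direction, neither past 0.05. In the protein import list 24 of 28 genes were lower (median -0.098) and 1 passed: Tomm40, the channel of the outer membrane, fell by 0.33 (SE 0.054, limma adjusted p = 0.027). It read 8.98 to 9.10 in the controls and 8.71, 8.72 and 8.63 in the knockouts. Tomm40 lost this call in 7 of the 9 fits that each left out 1 sample, at adjusted p values of 0.051 to 0.096 by limma, namely on removal of controls 1, 3, 4, 5 and 6 and of knockouts 2 and 3. Its difference lay between -0.35 and -0.30 in all 9 fits. Without knockout replicate 3, 21 of the 28 import genes were lower (median -0.041), and the gene past 0.05 was instead Hspd1, the mitochondrial chaperonin, which was higher (0.77, limma adjusted p = 0.028, against 0.43 and 0.37 with all samples). Its partner Hspe1 was at 0.38 with all samples (limma adjusted p = 0.067). Hspd1 and Hspe1 were named after their values were seen.

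**Figure D4:**
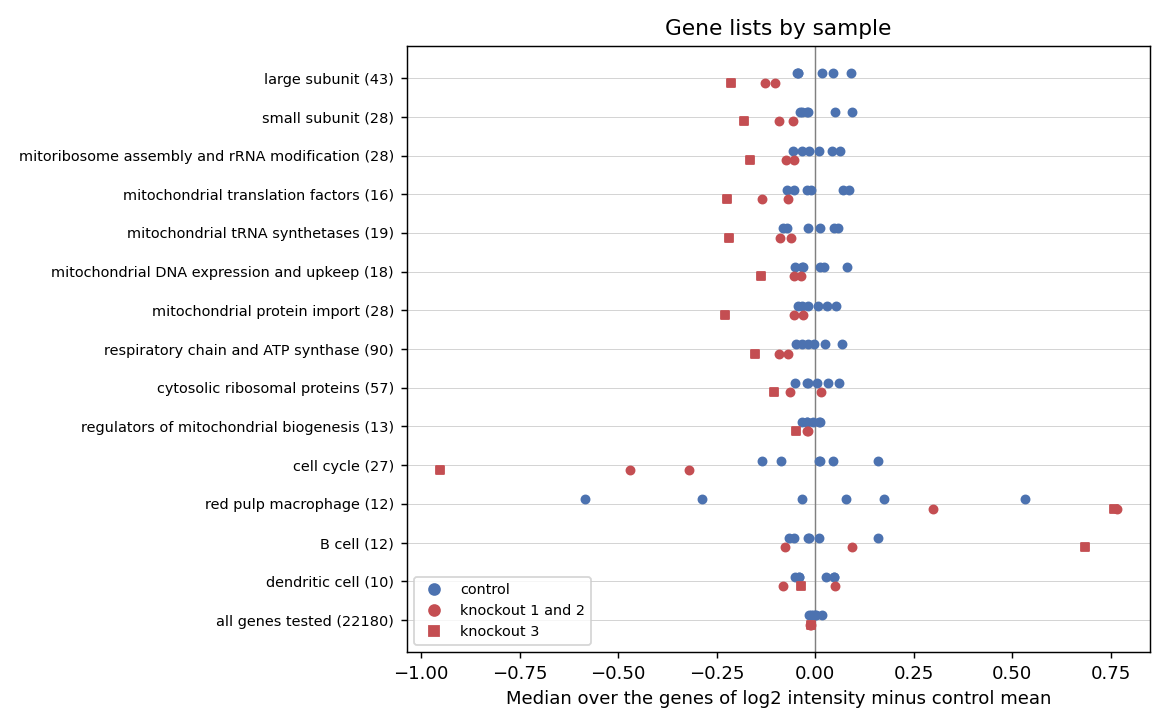
Each point is 1 sample, placed at the median over a gene list of the log2 intensity minus the control mean; blue marks controls, red marks knockouts and the red square is knockout replicate 3. The number of measured genes follows each list's name. Knockout 3 is leftmost for both ribosomal subunits (-0.21 and -0.18) and for cell cycle genes (-0.95), and rightmost for B cell markers (0.69).

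Cell cycle genes moved in the same direction and further, and in the same order over the knockouts. All 27 measured were lower, with a median of -0.59, and 8 passed 0.05: Ube2c, Ccna2, Plk1, Timeless, Aurkb, Gins2, Cdc45 and Tk1 fell, with differences of -0.56, -0.59, -0.61, -0.80, -0.52, -0.52, -0.51 and -0.43 (limma adjusted p from 0.011 to 0.046). That count of 8 depended on single samples: removing control 1, 2, 3, 4, 5 or 6 gave 3, 5, 3, 3, 3 or 2 genes, and removing knockout 1, 2 or 3 gave 20, 1 or 3. Their median per sample was -0.32, -0.47 and -0.95 in knockout replicates 1 to 3 and 0.16 in control replicate 4, which were also the lowest and highest samples for the mitochondrial ribosome. Red pulp macrophage markers were higher in 12 of 12 genes (median 0.61, none past 0.05), with a mean log2 intensity of 8.0 to 9.16 in the controls and 8.80 to 9.33 in the knockouts. B cell markers were higher in 9 of 12, with a mean of 7.02 to 7.28 in the controls and 7.0 to 7.96 in the knockouts. Plasma cell markers were higher in 7 of 7, with Jchain (1.89) and Prdm1 (0.56) past 0.05, and monocyte markers in 7 of 10. Prdm1 kept its call in all 9 fits that left out 1 sample, while Jchain lost it in 7, all except those without control 3 or knockout 1. The T cell, NK cell, plasmacytoid DC, neutrophil and erythroid lists had medians of -0.043, -0.0095, 0.22, 0.052 and 0.15, with Il7r of the T cell list past 0.05 (0.71). Without knockout replicate 3 the medians were -0.38 for cell cycle genes, 0.54 for red pulp macrophage, 0.034 for B cell and 0.14 for plasma cell markers, and 0.018, -0.025, 0.036, 0.13 and 0.19 for the last 5 lists. The part of dividing cells or of other cell types in the lower values of the ribosomal genes was not tested. Over control replicates 1 to 6, macrophage markers were at 0.18, 0.53, -0.58, -0.033, 0.078 and -0.29. Control replicate 4, the highest for both subunits, was near 0 for these markers. Control replicate 2, the highest control for them, had the lowest control subunit medians, -0.046 and -0.037. Control replicate 3, the lowest for them, had 0.044 and 0.051. Knockout replicate 1, with macrophage markers at 0.30, below control replicate 2, had the subunit medians of -0.10 and -0.055. Knockout replicates 2 and 3, at 0.77 and 0.76, had -0.13 and -0.21 in the large and -0.092 and -0.18 in the small subunit. Whether these values are linked was not tested.

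Some sequence features, which the choice of genes did not use, were more frequent in the promoters of these genes than over all genes tested. Promoter windows of 300 bases, 250 before and 50 after the RefSeq gene start (GRCm38.p6), were present for 62 of the 71 genes and for 16990 of the genes tested. Members had a median of 21 CpG dinucleotides per window against 13 over all genes, at a GC content of 58.2% against 56.3%. The ETS factor core CCGGAAG, the kind of site bound by the mitochondrial gene regulator GABP, occurred on either strand in 22 of 62 member windows (35.5%) and in 11.7% of all windows. AAGATGGC, the core of the YY1 site, occurred in 12 (19.4%) against 3.31%. The palindromic site of NRF1 occurred in 3 (4.84%) against 1.37%. The C/EBP palindrome TTGCGCAA occurred in 0 of 62 and in 0.224% of all windows, and the looser TTGCNNAA, which includes it, in 3 (4.84%) against 10.2%. The E-box CACGTG, to which Myc and its relatives bind, occurred in 5 (8.06%) against 8.18%. These are matches of letters, not shown binding. Each motif was absent from most member windows, and shares over the brighter genes alone were not taken.

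Members with and without the ETS core had median differences between knockout and control of -0.14 and -0.13, and those with and without the YY1 core had medians of -0.091 and -0.15, as descriptions with no test. The ETS core was present in 6 of the 15 genes whose groups did not overlap, against 22 of all 62 members with a window (35.5%). It begins within 150 bases before the gene start in 5 of these, and further away, at 240 bases, in Mrpl18. The stretches of 4 are printed to show where it sits. The fifth, Mrps26, has its core 14 bases before the start. Another gene starts 8 bases upstream on the other strand, so the core lies outside the stretch between the starts and is not printed. Capitals mark a core that lies wholly within the stretch, read as CCGGAAG or, on the other strand, as CTTCCGG. All run 5′ to 3′ in the direction of the gene and end at the base before its start.
Mrpl3, chr9:105053118-105053267, plus strand: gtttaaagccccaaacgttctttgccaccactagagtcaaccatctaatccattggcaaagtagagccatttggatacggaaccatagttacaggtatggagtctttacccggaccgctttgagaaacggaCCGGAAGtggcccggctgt
Mrpl51, chr6:125192050-125192199, plus strand: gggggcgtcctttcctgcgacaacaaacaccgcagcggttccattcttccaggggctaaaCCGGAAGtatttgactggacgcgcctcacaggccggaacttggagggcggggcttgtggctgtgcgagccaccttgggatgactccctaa
Mrpl52, chr14:54426759-54426908, plus strand: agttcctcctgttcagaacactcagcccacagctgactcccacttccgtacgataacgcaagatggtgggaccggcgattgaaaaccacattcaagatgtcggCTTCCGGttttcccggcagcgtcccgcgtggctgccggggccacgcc
Mrpl58, chr11:115403602-115403751, plus strand: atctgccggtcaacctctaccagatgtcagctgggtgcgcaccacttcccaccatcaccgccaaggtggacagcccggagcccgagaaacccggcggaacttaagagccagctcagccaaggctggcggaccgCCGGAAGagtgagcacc
In Mrpl3 and Mrpl58 the core in capitals begins 19 and 17 bases before the start, in Mrpl52 at 47 and in Mrpl51 at 90. Mrpl52 and Mrpl58 each hold a further core, without capitals here. It begins 2 bases after the start in Mrpl52, and 2 bases before the start in Mrpl58, where it runs past the printed stretch. Their differences were -0.24 for Mrpl3, -0.18 for Mrpl51, -0.25 for Mrpl52 and -0.21 for Mrpl58. Mrpl16, with the largest difference among the genes without overlap, holds none of the motifs searched in its window.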

How the data were processed

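The authors deposited 1 log2 intensity per probe and sample. The submitters' processing notes name RMA, a method that corrects background, normalizes by quantiles and summarises probes; no version is given in the sources used here. The values themselves showed a log2 scale. Quantile normalization can remove a shift shared by most genes. RNA was labelled with the WT PLUS kit, per the labels' protocols. Of 34468 probes with values in all 9 samples, 23521 named 1 gene in the platform annotation, 1814 several and 9133 none. The brightest probe stood for a gene, and probe intensities do not rank genes by abundance. Groups were compared by limma 3.58.1 in R 4.3.3 (lmFit and eBayes, two-sided, no covariate), with Benjamini-Hochberg adjustment over 22180 genes and a threshold of 0.05, after a test on simulated data. The number of arrays limits the precision.

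The genes and lists were chosen with earlier results of these data known. Members were named if past 0.05, without overlap between groups, among the 6 most positive or 6 most negative moderated t or the 3 brightest or 3 dimmest of a subunit. Mrps18a, Mrps18b, Mrps18c, Mrps30 and Mrps36 were named whatever their values, and of other lists the genes past 0.05 or the 2 of smallest p. Mrpl10, Mrpl11, Mrpl12, Mrpl23, Mrpl38, Mrpl47, Mrps16, Mrps2, Mrps5, Hspd1, Hspe1, the cell type markers and the head-to-head genes were picked with their values in view. Alternatives were median centring, a second quantile normalization, trend and robust variance, array weights (statmod 1.5.0), the replicate block, each sample left out, a filter on dim probes, the mean of a gene's probes and leaving out pseudogenes.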

Additional observations from a re-analysis of the deposited data

Results flagged for a closer look

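In 4 of the 36 named ribosomal genes, 1 control lay far from the other 5, where chance sets apart about 5% of groups. Mrpl27 read 6.15 in control replicate 2 against 5.66 in the next highest. Mrpl48 read 6.67 in control replicate 3 against 6.51. Mrps21 read 7.68 in control replicate 4 against 7.55. Mrps36 read 4.57 in control replicate 6, below 4.89 in the next lowest. Over all 71 members this was so in 11.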

How the results depend on the processing

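No subunit member passed 0.05 under any alternative run; the smallest adjusted p by limma was 0.054 (without control replicate 2). The subunit medians stayed below 0, from -0.18 to -0.098 in the large and from -0.14 to -0.065 in the small subunit, the values nearest 0 coming from a second quantile normalization, where 33 large and 22 small subunit genes were lower and 7 and 2 were so at an unadjusted p under 0.05 (12.7% of members, against 7.26% of all genes). The share over the brighter genes, 15.3% in the main fit, was not taken under that normalization. Leaving out 1 sample gave medians of -0.18 to -0.11 and of -0.14 to -0.092. No member symbol marks a pseudogene, so leaving those out changed nothing. Over all genes, 201 passed 0.05. This became 2 with the replicate block and 652 with array weights. It became 537 with the filter on dim probes (fewer genes tested) and 33 to 332 with 1 sample left out. In the block fit, controls whose replicate number has no knockout add nothing to the difference, so that fit has less power. The cause was not tested for array weights or for the fits with 1 sample left out. Replicate numbers were not shown to pair the samples: deviations of same-numbered samples correlated at -0.14, -0.10 and 0.047, and no knockout correlated best with its own number. With the replicate block the subunit medians were -0.14 and -0.14, 36 large and 21 small subunit genes were lower, and 5 and 2 were so at an unadjusted p under 0.05 by limma (9.86% of members, against 4.76% of all genes). Here too the share over the brighter genes was not taken. The block ended the calls of Cebpb (adjusted p = 0.14), Tomm40 (0.44), Jchain, Prdm1, Il7r and all 8 cell cycle genes. Genes of the mitochondrial lists that passed 0.05 only under alternatives were, beside Hspd1 without knockout replicate 3, Gtpbp10, Ndufa4, Qrsl1 and Rars2 with array weights (adjusted p 0.034 to 0.049), these and Trub2 with the filter on dim probes (0.032 to 0.047), Rars2 without knockout replicate 1 (0.023), and Hspe1, higher, with a second quantile normalization, array weights and the filter (0.030 to 0.043).

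Signs under the alternatives were followed only in the 36 named ribosomal genes and the named genes of other lists. Other members with small differences were not followed and could turn sign as well. Among the genes followed, some with differences near 0 turned sign. With array weights these were Mrpl27 (-0.00034), Mrpl32 (-0.019), Mrpl45 (-0.0033), Mrps21 (-0.041), Mrps18c (0.11), Mrps7 (0.034) and Gadd45gip1 (0.027). With the replicate block they were Mrpl22 (0.017), Mrpl27 (-0.092) and Mrps18c (0.16), and Mrps18c also turned with a second quantile normalization (0.027) and with the mean of its probes (0.0044). With 1 sample left out, the ranges that crossed 0 among the genes followed were -0.021 to 0.023 (Mrpl24), -0.019 to 0.12 (Mrpl27), -0.039 to 0.087 (Mrpl32), -0.016 to 0.046 (Mrpl37), -0.017 to 0.068 (Mrpl45), -0.14 to 0.0041 (Mrps15), -0.16 to 0.15 (Mrps18c), -0.028 to 0.055 (Mrps21), -0.17 to 0.13 (Mrps7) and -0.17 to 0.0035 (Gadd45gip1).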

Other observations

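Many of these genes start head to head with another gene. Within 500 bases upstream, a gene on the opposite strand starts for 21 of 62 members (33.9%) and for 12.5% of the 16990 genes examined, by RefSeq gene starts. One pair consists of both subunits: Mrpl46 and Mrps11 start 42 bases apart, and the 41 bases between them are shown as the whole of their shared upstream stretch, with no capitals since none of the motifs searched lies in it.
Mrpl46, chr7:78783090-78783130, minus strand: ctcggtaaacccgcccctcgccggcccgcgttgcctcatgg
Mrpl46 differed by -0.10 and Mrps11 by -0.074, neither past 0.05. Mrps12 shares its start region with the mitochondrial seryl-tRNA synthetase Sars2 (-0.12 and -0.20), Mrpl47 with the complex I gene Ndufb5 (-0.19 and -0.094), and Mrps27 with Ptcd2 (-0.087 and -0.088). Of the 21 neighbours 18 were lower in the knockouts, with a median of -0.088 and a range of -0.46 to 0.33, and none passed 0.05. Over all genes 55% were lower, and over the brighter genes 64%. Mrpl46 and Mrps11, members themselves, are each counted as the neighbour of the other. Those that went the other way were Tmem63b (0.33, beside Mrpl14), Zfp189 (0.16, beside Mrpl50) and Gga3 (0.11, beside Mrps7). These pairs were looked for after the values were seen.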
